A study of Mus musculus with 6 samples.

Results

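The PRDM family of zinc finger genes was examined in single-cell RNA sequencing of mouse renal cortex, with Prdm16, the gene deleted in the study, at its centre. The 7 members described here, Prdm16, Mecom, Prdm1, Prdm2, Prdm4, Prdm10 and Prdm15, were chosen by symbol, and all 7 were found among the 26903 genes counted in the 6 libraries. PRDM proteins carry a PR domain, which is related to the SET domain of histone methyltransferases, followed in most members by zinc fingers that bind DNA, and they act as transcriptional regulators that recruit co-repressor or co-activator proteins. PRDM16 and its closest paralogue MECOM (also called EVI1 or PRDM3) are described as histone H3 lysine 9 methyltransferases. PRDM16 is best known for holding brown fat cells in their identity, and MECOM for maintaining blood stem cells. PRDM1 (Blimp-1) drives the terminal differentiation of plasma cells and acts in T cells, and PRDM2 (RIZ) is a histone methyltransferase with tumour suppressor activity. PRDM4, PRDM10 and PRDM15 are broadly expressed regulators with roles in neural progenitors, in early development and in pluripotent cells, respectively. The questions were in which kidney cells each gene was measured, and whether any paralogue was higher where Prdm16 was deleted.

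Renal cortex from 3 wild type (WT) and 3 Prdm16 knockout (KO) mice, all 9 months old and all labelled male, gave 1 library per mouse. The knockout was global, made with CRISPR-Cas9 by removing exon 2 of Prdm16, so that every cell type carried the deletion in the KO mice and none in the WT mice. Cells were captured on the BD Rhapsody platform, in which barcoded beads bind the 3′ end of each mRNA and each molecule is counted once by its unique molecular identifier (UMI). Barcodes with 500 to 60000 UMIs, 200 to 8000 genes and at most 50% mitochondrial UMIs were retained, which left 28488 cells after removal of likely doublets, 14655 from WT and 13833 from KO mice.

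The retained cells held between 23107708 and 35366031 UMIs per library, with a median of 2372.5 to 3568.5 UMIs per cell and a median mitochondrial share of 19.1% to 29.4%. They fell into 27 clusters and 23 classes, named from marker genes of kidney and immune cells, so that each class name stands for cells resembling that type. Stress or inflammatory genes led some clusters (Lif and Gdf15 in principal cells, Nupr1 in podocytes, Ccl3, Ccl4 and Tnf in macrophages), and haemoglobin genes led in the distal convoluted tubule class, with haemoglobin RNA at 157 CPM (counts per 1000000 UMIs of the library or class) in KO replicate 1 and at most 10.9 CPM in the other 5 libraries. Genotypes were compared in the 18 classes for which each of the 6 libraries gave 20 cells or more. Proximal tubule cells, the bulk of renal cortex, fell short of that minimum under the mitochondrial limit. At most 2 barcodes were shared between any pair of libraries. The libraries WT replicate 2 and KO replicate 1 did not match the labelled sex. Xist, the RNA of the inactive X chromosome, was at 297 and 306 CPM in these 2, with Y-linked genes at 0.0566 and 0.0613 CPM, whereas the other 4 libraries had at most 0.216 CPM of Xist and at least 110 CPM of Y-linked genes. Each genotype held 1 such library, and the comparisons below were also made without both.

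Exon 2 of Prdm16 is shown first, because its removal defines the KO mice. Prdm16 lies at chr4:154316125-154636873 on the minus strand of GRCm38 (GENCODE vM21), and exon 2 is chr4:154528582-154528931. All 350 bases of exon 2 are coding, it is part of 7 of 7 coding transcripts, and its length leaves a remainder of 2 when divided by 3. The first 300 bases of the exon, chr4:154528632-154528931 in the direction of transcription, read as follows.

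Prdm16 exon 2, first 300 bases: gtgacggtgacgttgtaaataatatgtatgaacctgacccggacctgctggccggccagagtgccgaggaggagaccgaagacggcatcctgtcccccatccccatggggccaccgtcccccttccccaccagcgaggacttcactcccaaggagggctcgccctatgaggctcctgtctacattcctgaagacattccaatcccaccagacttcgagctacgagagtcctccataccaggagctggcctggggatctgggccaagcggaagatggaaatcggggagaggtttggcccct

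When the 37 coding bases of exon 1 are joined to exon 3, the reading frame meets a stop codon (in capitals) within exon 4, after 31 codons, where the intact transcript has 1275 codons before its stop.

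Prdm16 coding exon 1 joined to exons 3 and 4, up to the first stop: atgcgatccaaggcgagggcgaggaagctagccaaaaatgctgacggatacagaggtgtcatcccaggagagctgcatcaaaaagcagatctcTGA

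The deposited values are UMIs per gene, captured at the 3′ end of mRNAs and, for a gene with 17 exons, not split by exon, so they count a transcript with or without exon 2 alike, and the deletion itself could not be checked with them. Prdm16 transcripts were counted in every library, which gave 4662 UMIs in all. Over all retained cells, Prdm16 was at 32.4, 26.7 and 27.1 CPM in the 3 WT libraries and at 21.04, 24.9 and 23.4 CPM in the 3 KO libraries. No KO value reached the lowest WT value, and the fitted log2 fold change of KO over WT was -0.29 (95% interval -0.58 to -0.00025, unadjusted p = 0.0498, adjusted p = 0.33, edgeR quasi-likelihood test with Benjamini-Hochberg adjustment over all genes). Barcodes with few UMIs showed the same order. In those under 100 UMIs, taken here as mostly free RNA, Prdm16 was at 39.9, 33.7 and 34.3 CPM in WT mice versus 29.9, 24.9 and 33.0 CPM in KO libraries, and the part of free RNA in the cell values was not tested.

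Prdm16 was measured in vascular and in distal tubular classes (plot of Prdm16 and Mecom by cell class). Its highest median was in the Mgp-expressing arterial endothelial class, at 74.8, 78.0 and 84.5 CPM in WT mice versus 130, 101 and 52.2 CPM in KO libraries. That class held few cells, between 21 and 50 per library, and at most 19 Prdm16 UMIs in any library, and Prdm16 did not pass the filter on low counts there. Smooth muscle and renin cells came next, at 78.2, 40.1 and 84.9 CPM in WT mice versus 30.6, 77.4 and 56.8 CPM in KO libraries. This class too was thin, with 3 to 13 Prdm16 UMIs and 20 to 100 cells per library. Principal cells, which take up water through Aqp2 in the collecting duct, held 71.4, 54.4 and 47.7 CPM in WT mice versus 50.6, 56.9 and 37.6 CPM in KO libraries. The principal cell values rest on 56 to 193 Prdm16 UMIs per library, and the libraries of the 2 genotypes overlapped in all 3 of these classes.

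Among the other distal tubular classes ordered by median, the Cldn16-expressing thick ascending limb came first. Its WT libraries held 45.8, 43.4 and 40.7 CPM of Prdm16 and its KO libraries 33.7, 41.2 and 35.2 CPM. The connecting tubule, macula densa, Cldn10 thick ascending limb and distal convoluted tubule followed. This order is by level, not by position along the nephron. In the connecting tubule Prdm16 was at 49.1, 42.8 and 31.2 CPM in WT mice versus 40.9, 37.3 and 30.3 CPM in KO libraries. In acid-secreting type A and base-secreting type B intercalated cells it ranged over the 6 libraries from 14.97 to 31.1 CPM and from 9.56 to 22.2 CPM. These ranges overlapped between every pair of neighbours when the 18 classes were ordered by their median, so the order of neighbouring classes was not fixed by these data. Type B cells came from a shallow and a deep cluster, whose shares of the cells differed between libraries. Set against the 24.9 to 39.9 CPM of the barcodes with under 100 UMIs, the Mgp arterial endothelium lay above that range in all 6 libraries and type B cells lay below it in all 6. Type A cells, the distal convoluted tubule (20.1 to 35.7 CPM), the Cldn10 thick ascending limb (24.5 to 37.9 CPM) and the other tubular and vascular classes named so far overlapped with it. Against the barcodes of the same library, principal cells, the Cldn16 thick ascending limb and smooth muscle and renin cells lay higher in each library. Type A cells lay lower in each. The other overlapping classes went both ways.

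Other classes held little Prdm16. Podocytes, the filtration cells of the glomerulus, held 0.257 to 1.84 CPM of Prdm16 in the 6 libraries, below the 24.9 to 39.9 CPM of the barcodes with under 100 UMIs. Mesangial cells were at 0 to 4.15 CPM, with no Prdm16 UMI in any KO library and 3 UMIs in the WT libraries together. Macrophages were at 0 to 5.61 CPM and T and NK cells at 0 to 8.32 CPM. No library of these 4 classes reached the lowest library of the type B intercalated cells, and the thin limb and parietal class spanned the gap, at 0, 4.81 and 18.7 CPM in WT mice versus 9.44, 27.8 and 9.58 CPM in KO libraries. The contrast between the neighbouring glomerular classes was wide, since glomerular endothelial cells held 12.3 to 50.4 CPM.

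**Figure D1:**
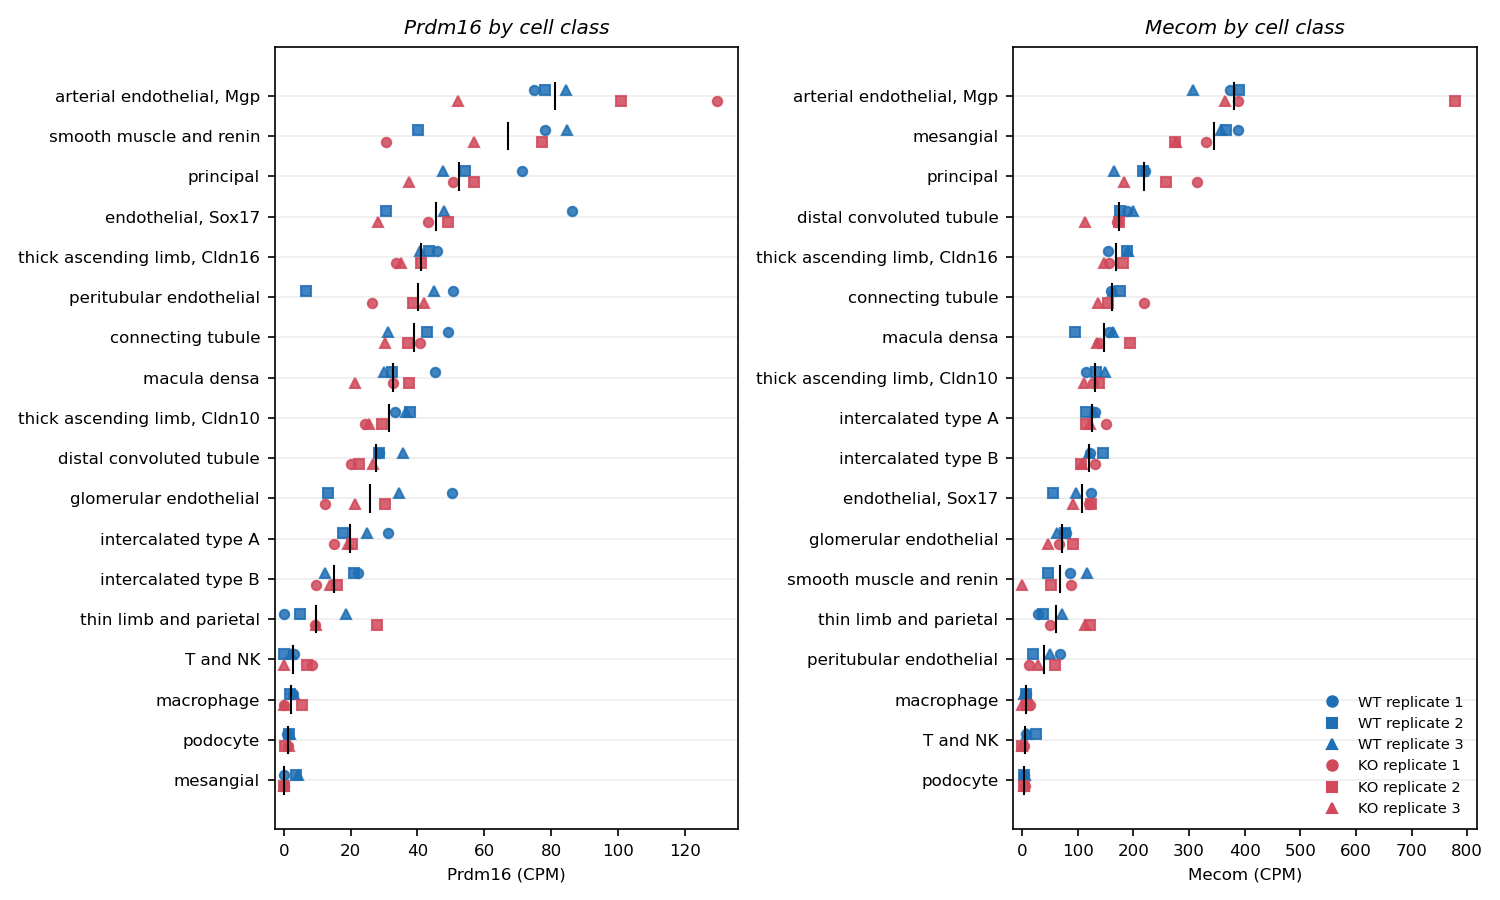
Levels of Prdm16 (left) and Mecom (right) in CPM (x axis) in 18 cell classes (rows), with 1 point per library (blue WT, red KO, shape for the replicate) and a black bar at the median of the 6 libraries. Both genes were low in podocytes, macrophages and T and NK cells, and mesangial cells held 276 to 388 CPM of Mecom with at most 4.15 CPM of Prdm16.

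Proximal tubule cells were rare under the mitochondrial limit. With no such limit, 35 to 1220 proximal tubule cells per library could be examined, and Prdm16 was at 7.23, 1.45 and 1.92 CPM in WT mice versus 0, 1.63 and 1.01 CPM in KO libraries, from 43 UMIs in all. These levels lay below those of free RNA as well, in totals that include the mitochondrial UMIs of these cells.

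Mecom, the closest paralogue, was counted with 22226 UMIs and shared much of this distribution. It was high in the Mgp arterial endothelial class, at 374, 390 and 306 CPM in WT mice versus 389, 778 and 365 CPM in KO libraries, and in principal cells, at 221, 217 and 165 CPM in WT mice versus 314, 259 and 184 CPM in KO libraries. The Cldn10 and Cldn16 thick ascending limb, macula densa, distal convoluted and connecting tubule and both intercalated classes were between 94.7 and 218 CPM in every library. Barcodes with under 100 UMIs held 105 to 149 CPM of Mecom. The main departure from Prdm16 was in mesangial cells, the contractile support cells of the glomerular tuft, which held 388, 366 and 357 CPM of Mecom in WT and 331, 276 and 276 CPM in KO libraries. Podocytes were again low, at 2.57 to 4.91 CPM. Smooth muscle and renin cells, next to highest for Prdm16, held 0 to 118 CPM of Mecom.

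Prdm1 had another distribution, with 761 UMIs in all. T and NK cells held 89.9, 83.8 and 108 CPM in WT mice versus 49.9, 113 and 60.4 CPM in KO libraries. Peritubular capillary endothelium, marked by Plvap and Igfbp3, held 67.6, 88.5 and 110 CPM in WT mice versus 49.4, 43.2 and 33.6 CPM in KO libraries. Glomerular endothelial cells ranged from 16.8 to 66.2 CPM and macrophages from 7.36 to 62.2 CPM, while the classes from the thick ascending limb to the collecting duct, in which Prdm16 and Mecom were found, stayed at or below 5.81 CPM.

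Prdm2, with 8991 UMIs, was measured in all 18 classes. Podocytes held 80.6 to 93.1 CPM in the 6 libraries, the narrowest range among its high classes, and over all cells it was at 42.9 to 55.5 CPM. In each of the 4 classes poor in Prdm16 (podocytes, mesangial cells, macrophages, T and NK cells) the median of Prdm2 was above its median over all cells, 50.3 CPM. The same held in endothelial classes with a higher Prdm16 median. There the Prdm2 median was 87.7 CPM in Mgp arterial, 79.2 CPM in Sox17, 77.0 CPM in peritubular and 72.9 CPM in glomerular endothelium. Prdm4, Prdm10 and Prdm15 were sparse, at 6.32 to 8.86 CPM, 3.54 to 5.09 CPM and 1.87 to 3.51 CPM over all cells. In the heat map of the 7 genes these 3 genes show shallow patterns that rest on few UMIs per class.

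**Figure D2:**
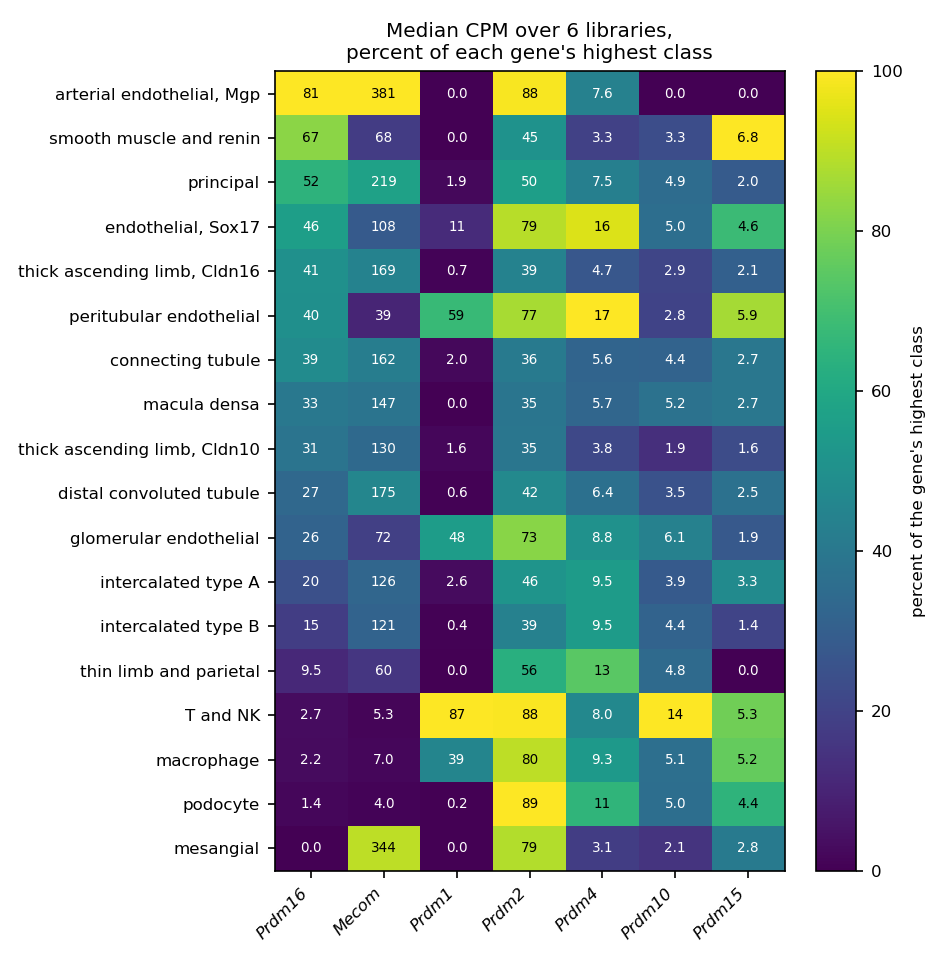
Median level over the 6 libraries of each of the 7 genes (columns) in 18 cell classes (rows, ordered by Prdm16), coloured as percent of that gene's own highest class and with the median in CPM written in each cell. Prdm16 and Mecom are bright in the Mgp arterial endothelial class and principal cells, Prdm1 in T and NK cells and peritubular endothelium, and Prdm2 in several classes, among them podocytes, where Prdm16 was at most 1.84 CPM.

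Among 10806 genes with a mean of at least 5 CPM in WT libraries, those most like Prdm16 over the 18 classes were ranked by Pearson's r of log2(CPM + 1). The 10 genes were Zfp711 (r = 0.85), Cd24a (0.84), Sox6 (0.82), Tmie (0.82), Rasd1 (0.80), Knop1 (0.79), Insr (0.78), Kalrn (0.77), Magi1 (0.77) and Fzd4 (0.77). Insr encodes the insulin receptor, and Sox6 a transcription factor expressed in renin cells. In KO libraries the same r was 0.84 for Cd24a and 0.81 for Sox6 but 0.47 for Zfp711. The 5 genes most like Mecom were Kalrn (0.93), Lmo7 (0.90), Adcy6 (0.86), Tns1 (0.84) and Hoxb6 (0.84), so that Kalrn stood in both rankings. The 18 points of each correlation share libraries and depth, and they are a description.

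The genotypes were then compared within each class on UMIs summed per mouse. The 7 genes gave 63 tests of 126 gene and class pairs, since the others did not pass the filter on low counts. Over the 18 classes, 1.39% of all gene and class tests had an adjusted p under 0.05, whereas 0 of the 63 member tests did, 4 of them with an unadjusted p under 0.05 (edgeR). DESeq2 called 0 of them too. Of all genes, 1694 of 10117 in the Cldn10 thick ascending limb had an unadjusted p under 0.05 (edgeR). In the distal convoluted tubule 967 of 9376 did, in peritubular endothelium 343 of 4490 and in the thin limb and parietal class 294 of 4387. These are, with the Cldn10 thick ascending limb, the classes of those 4 member tests. In the smooth muscle and renin class 115 of 2270 did. In 8 of the 63 tests the 3 KO values lay all above or all below the 3 WT values, against 15.9% of all tests, and the share among the members was not above this background. The median log2 fold change of the members was -0.02. The sum over all cells, where 1.07% of genes were called, gave 0 calls among the 7 genes. A lower count in summed cells of a class can come from fewer molecules per cell or from another mix of cells within the class, and these cannot be told apart here.

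Prdm16 could be tested in 12 classes, and its fold change was negative in 12 of 12, between -0.53 and -0.12 on the log2 scale with a median of -0.41. In the Cldn10 thick ascending limb, where 4.07% of genes were called, Prdm16 was at 33.3, 37.9 and 36.5 CPM in WT mice versus 24.5, 29.4 and 25.4 CPM in KO libraries. The groups did not overlap there, and the log2 fold change was -0.46 (95% interval -0.74 to -0.17, unadjusted p = 0.0039, adjusted p = 0.074). Without any mitochondrial limit this test passed, with an adjusted p of 0.039 by edgeR, and without WT replicate 2 and KO replicate 1 the log2 fold change was -0.38 (adjusted p = 0.39, edgeR).

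In the distal convoluted tubule (1.13% of genes called) Prdm16 was at 28.4, 28.4 and 35.7 CPM in WT mice versus 20.1, 22.6 and 26.6 CPM in KO libraries, again without overlap, with a log2 fold change of -0.43 (adjusted p = 0.48, edgeR). Type A intercalated cells (0.695% called) gave -0.51 and type B (0.8%) -0.49. Principal cells (2.14%) gave -0.26 with an interval from -0.66 to 0.15, the connecting tubule (2.59%) -0.16 and the Cldn16 thick ascending limb (1.94%) -0.21. The Sox17 endothelial (0.395%), peritubular endothelial (0.379%) and smooth muscle and renin (0%) classes gave -0.40, -0.12 and -0.51, and there the sign turned when single libraries were left out. Leaving out WT replicate 1 gave 0.07 and 0.26 in the first 2, and leaving out KO replicate 1 gave 0.04 in the last. The remaining tested classes were the macula densa (1.35% called) and the glomerular endothelium (0.149%), at -0.26 and -0.53. Over all cells, the 95% interval of the Prdm16 level in KO mice ran from 0.668 to 1.00 of that in WT mice.

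**Figure D3:**
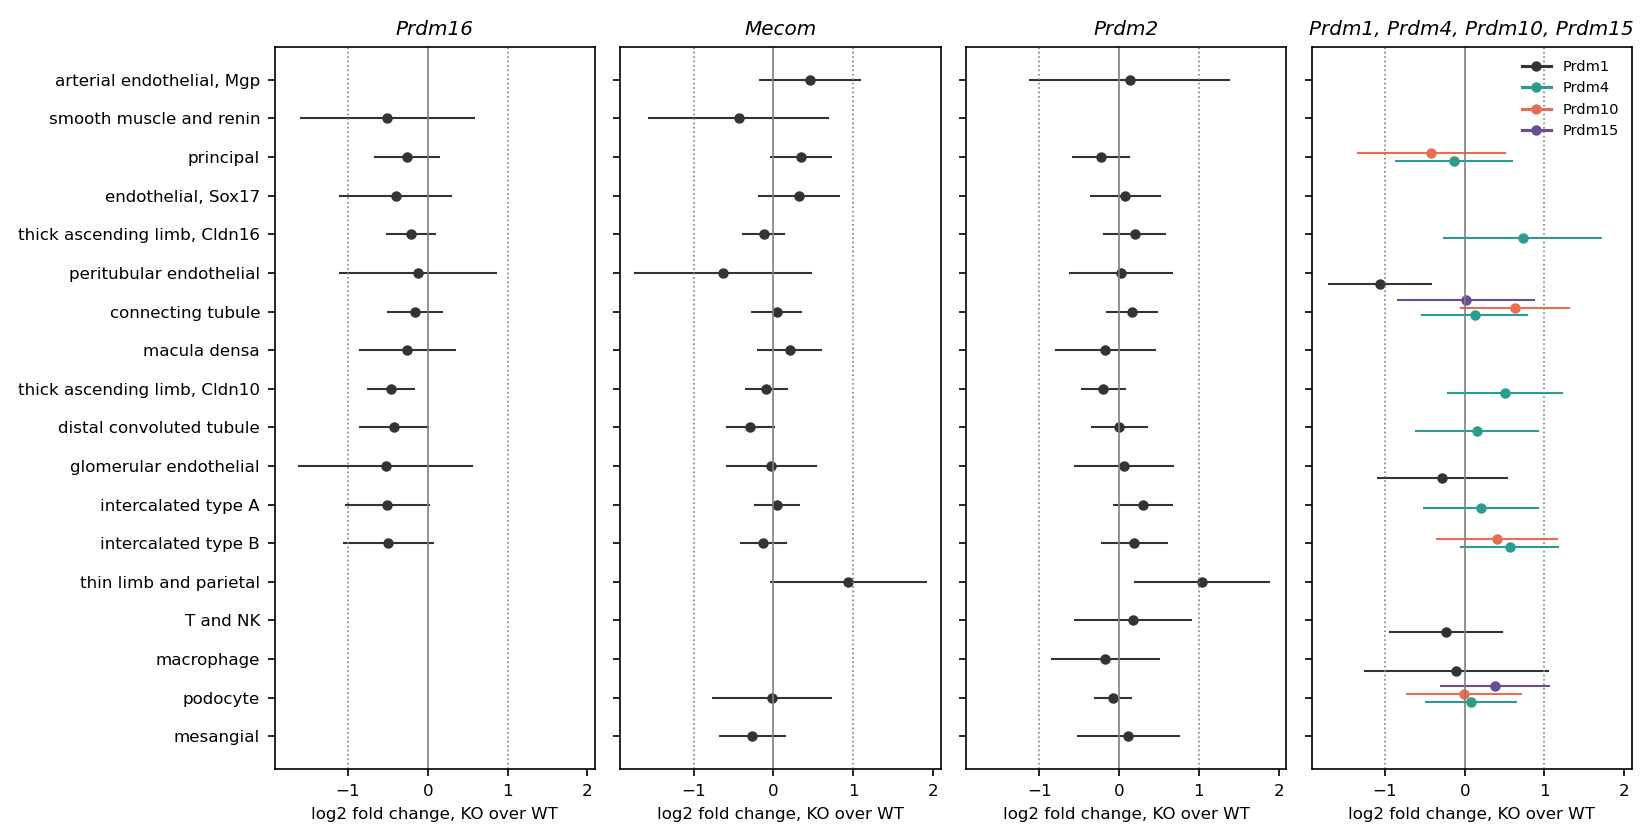
Log2 fold change of KO over WT (x axis, points) with its 95% interval (lines) from the edgeR fits, by cell class (rows), for Prdm16, Mecom, Prdm2 and the 4 less abundant genes. The solid line marks no change and the dotted lines a 2-fold difference in either direction. The 12 Prdm16 points, all from the same 6 mice, lie left of 0, whereas those of Mecom and Prdm2 lie on both sides.

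For the 6 paralogues the question was whether any was higher in KO mice. None passed the test in any class where it could be tested. Of 51 paralogue tests, 30 had a positive and 21 a negative fold change, with a median of 0.04. An unadjusted p under 0.05 (edgeR) was reached in 2 of them, 1 for a higher level. Of all genes, 343 of 4490 and 294 of 4387 did so in the 2 classes concerned, peritubular endothelium and the thin limb and parietal class. The upper 95% bound was below a 2-fold increase in 40 tests and at or above it in 11, so a doubling was within the interval of those 11. Mecom was at 125, 128 and 126 CPM over all cells in WT and 131, 117 and 113 CPM in KO libraries, a log2 fold change of -0.06 (95% interval -0.23 to 0.11).

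By class, Mecom was lower in 9 and higher in 7 of 16 tested classes, none past the threshold. In principal cells its values were given above, and 2 of 3 KO libraries lay above all WT libraries, with a log2 fold change of 0.35 (95% interval -0.03 to 0.72, adjusted p = 0.44, edgeR). In the distal convoluted tubule Mecom was at 189, 176 and 198 CPM in WT mice versus 171, 174 and 113 CPM in KO libraries, which did not overlap, at -0.29 (95% interval -0.58 to 0.0075). Mesangial cells (0.548% of genes called) did not overlap either, at -0.26. The thin limb and parietal class (0% called) gave the highest value, 0.94 with an interval from -0.03 to 1.91, from 28.3, 38.5 and 71.2 CPM in WT mice versus 49.5, 122 and 113 CPM in KO libraries. In the Mgp arterial endothelium (0.204% called) it was 0.46, and in the connecting tubule 0.04 (95% interval -0.26 to 0.35).

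The fold change of Prdm1 was below 0 in its 4 tested classes, and in 3 of them the sign turned under at least 1 other setting. In peritubular endothelium its KO values, given above, lay below all WT values, and the log2 fold change was -1.06 (95% interval -1.70 to -0.43, unadjusted p = 0.0026, adjusted p = 0.19, edgeR). That class gave 51 UMIs of Prdm1 in WT and 59 in KO libraries together, from more KO than WT cells. T and NK cells (0.0253% called) and macrophages (0.42%) gave -0.24 and -0.10. In tubular classes Prdm1 did not pass the low-count filter. In the Cldn10 thick ascending limb it was at 0, 0.459 and 1.41 CPM in WT versus 3.14, 1.89 and 2.50 CPM in KO libraries. Those KO values lay above all WT values, from 9 WT and 29 KO UMIs, as did those of principal cells. The distal convoluted tubule went the other way with overlap, from 11 WT UMIs and 1 KO UMI. Prdm1 was also higher in the KO barcodes with under 100 UMIs. They held 3.85, 3.88 and 6.01 CPM, against 2.25, 2.67 and 3.67 CPM in WT libraries. The part of free RNA in the tubular values was not tested.

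Prdm2 reached an unadjusted p under 0.05 in 1 of 17 classes, the thin limb and parietal class, at 22.7, 48.1 and 41.2 CPM in WT mice versus 68.4, 115 and 63.9 CPM in KO libraries. The log2 fold change was 1.04 (95% interval 0.20 to 1.88, adjusted p = 0.63, edgeR), from 25 and 102 UMIs. Elsewhere its fold changes lay on both sides of 0, and podocytes (1.94% called) gave -0.08 with an interval from -0.30 to 0.14. Podocytes came from 3 clusters, whose shares of the cells differed between libraries of the same genotype.

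Among the sparse genes, Prdm10 in the connecting tubule was at 2.90, 3.78 and 3.86 CPM in WT mice versus 5.14, 6.28 and 4.93 CPM in KO libraries, without overlap, at 0.63 (95% interval -0.04 to 1.31, adjusted p = 0.43, edgeR). Barcodes with under 100 UMIs held 4.55 to 6.93 CPM of Prdm10, 5.49 to 8.93 CPM of Prdm4 and 2.31 to 7.33 CPM of Prdm15. The fold change of Prdm4 was above 0 in 7 of its 8 tested classes, between -0.14 and 0.73, with the sign turning under at least 1 other setting in 5 of the 8, and Prdm15 gave 0.02 and 0.38 in its 2. None of these differences passed the test.

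Whether the genotype effect differed between classes was tested over all class-by-genotype terms together. Of all genes, 6.67% were called, and 0 of the 7 members were, with an adjusted p of 0.22 for Mecom, 0.29 for Prdm1 and 0.92 for Prdm16 (edgeR). With no filter on low counts the test called Mecom (adjusted p = 0.0098) and Prdm1 (adjusted p = 0.0053, edgeR). The share of all genes called without the filter is not given here, so these calls stand without a background.

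Non-coding RNAs that lie beside Prdm16 and within Mecom separated the genotypes more clearly than either gene. Both RNAs were chosen after their values were seen. Prdm16os starts at chr4:154637580 on the plus strand, 707 bases from the Prdm16 start and on the opposite strand (RefSeq, GRCm38.p6), and Mecomos (chr3:30012379-30054808, plus strand, GENCODE vM21) overlaps Mecom (chr3:29951296-30548008, minus strand). Whether the counting used strand is not given in the sources used here, so reads of Mecom and Mecomos may not have been told apart where they overlap. The 250 bases before the RefSeq starts are shown for the 2 divergent RNAs and for the Mecom start within Mecomos, with the GC box GGGCGG (reverse CCGCCC) and the CCAAT box (reverse ATTGG) in capitals.

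Prdm16, chr4:154636874-154637123, minus strand: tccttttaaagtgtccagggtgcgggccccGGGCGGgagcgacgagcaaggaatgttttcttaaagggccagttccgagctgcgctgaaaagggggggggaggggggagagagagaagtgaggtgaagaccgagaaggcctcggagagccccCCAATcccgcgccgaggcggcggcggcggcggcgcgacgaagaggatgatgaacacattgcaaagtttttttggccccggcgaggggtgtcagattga
Prdm16os, chr4:154637330-154637579, plus strand: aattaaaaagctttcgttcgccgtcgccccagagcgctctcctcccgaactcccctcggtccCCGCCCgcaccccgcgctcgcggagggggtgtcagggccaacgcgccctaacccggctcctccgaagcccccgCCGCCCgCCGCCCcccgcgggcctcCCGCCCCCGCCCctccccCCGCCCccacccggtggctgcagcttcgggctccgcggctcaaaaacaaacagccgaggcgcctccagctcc
Mecom, chr3:30013205-30013454, minus strand: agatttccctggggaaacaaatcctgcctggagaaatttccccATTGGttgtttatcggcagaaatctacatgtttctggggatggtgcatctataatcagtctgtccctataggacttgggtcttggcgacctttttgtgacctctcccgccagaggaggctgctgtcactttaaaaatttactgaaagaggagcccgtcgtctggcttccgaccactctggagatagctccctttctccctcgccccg

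The Prdm16os window holds 32 CpG dinucleotides and 6 GC boxes, and 95.4% of 32851 promoter windows of this length held fewer CpG. The Prdm16 window holds 22 CpG (85.2% of windows held fewer), 1 GC box and 1 CCAAT box, and the Mecom window 8 CpG and 1 CCAAT box. Over all promoter windows 32.7% held a GC box and 33.8% a CCAAT box on either strand, and the median was 6 CpG. The MECOM site GACAAGATA (reverse TATCTTGTC) was in 0.107% of the windows. It was in none of the windows of Prdm16os, Prdm16, Mecom, Prdm1, Prdm4, Prdm10 and Prdm15, and no window was available for Prdm2. Such matches describe the letters only.

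Prdm16os was at 19.5, 15.2 and 23.5 CPM over all cells in WT and 8.43, 12.8 and 10.4 CPM in KO libraries. It was found mainly in the thick ascending limb, distal convoluted tubule, connecting tubule and principal cells. In the Mgp arterial endothelium it was at 0 to 16.6 CPM, from 6 UMIs in all, and the Sox17 endothelium held 0 to 4.70 CPM. In the connecting tubule it fell from 23.2, 21.1 and 21.9 CPM among WT mice to 8.01, 10.8 and 8.45 CPM in KO libraries, a log2 fold change of -1.29 (95% interval -1.72 to -0.87, adjusted p = 0.0027, edgeR). In the Cldn10 thick ascending limb it fell from 42.8, 32.1 and 48.2 CPM to 24.5, 28.6 and 11.5 CPM (log2 fold change -0.98, 95% interval -1.51 to -0.46, adjusted p = 0.038, edgeR). The groups did not overlap in either class. All 7 tested classes had a negative fold change and an unadjusted p under 0.05, with a median of -1.09, and 5 of the 7 showed no overlap. Over all gene and class tests 15.9% showed no overlap. In the connecting tubule 1327 of 10294 genes had an unadjusted p under 0.05 (edgeR), and in the Cldn10 thick ascending limb 1694 of 10117. The 7 classes come from the same 6 mice and are not independent. The connecting tubule value was -1.20 (adjusted p = 0.042) and the Cldn10 thick ascending limb value -1.25 (adjusted p = 0.032, edgeR) without the 2 libraries at odds with their labelled sex. The call in the Cldn10 thick ascending limb was lost when replicate 1 or 3 of the WT or replicate 1 or 3 of the KO mice was left out, with adjusted p-values of 0.073 to 0.145 by edgeR.

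Mecomos was at 12.1, 11.7 and 12.7 CPM over all cells in WT and 5.64, 6.75 and 8.45 CPM in KO libraries. In the Cldn10 thick ascending limb it fell from 22.7, 22.03 and 24.9 CPM among WT mice to 8.16, 8.10 and 9.58 CPM in KO libraries, with a narrow spread in both groups and a log2 fold change of -1.43 (95% interval -1.80 to -1.06, adjusted p = 0.00026, edgeR). Mecom itself was at 115, 132 and 148 CPM in these WT cells and at 128, 139 and 112 CPM in the KO cells, at -0.09. In the connecting tubule Mecomos fell from 12.1, 13.9 and 10.9 CPM to 4.93, 5.84 and 4.93 CPM, at -1.24 (95% interval -1.74 to -0.74, adjusted p = 0.0098, edgeR). With the mitochondrial limit at 30% the latter was -0.24. The latter call was also lost without KO replicate 1 and without both libraries at odds with their labelled sex (adjusted p = 0.23, edgeR), whereas the former remained (adjusted p = 0.0031, edgeR). All 7 tested classes had a negative fold change, with a median of -0.91, 4 of them with an unadjusted p under 0.05 and 4 without overlap, and 1 sign turned under another setting. These classes too come from the same 6 mice. Type B intercalated cells, at 6.86, 5.87 and 10.9 CPM in WT mice versus 8.61, 8.56 and 5.63 CPM in KO libraries, gave -0.0062. The macula densa, which was not tested, held 8.57, 12.7 and 10.04 CPM in WT mice versus 9.07, 14.3 and 8.34 CPM in KO libraries. The 2 RNAs were also lower in the barcodes with under 100 UMIs, at 14.5, 10.8 and 15.7 CPM of Prdm16os in WT against 6.93, 8.56 and 8.54 CPM in KO libraries, and at 9.33, 14.3 and 12.8 against 5.08, 5.89 and 5.63 CPM of Mecomos. The part of free RNA in these differences was not tested.

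**Figure D4:**
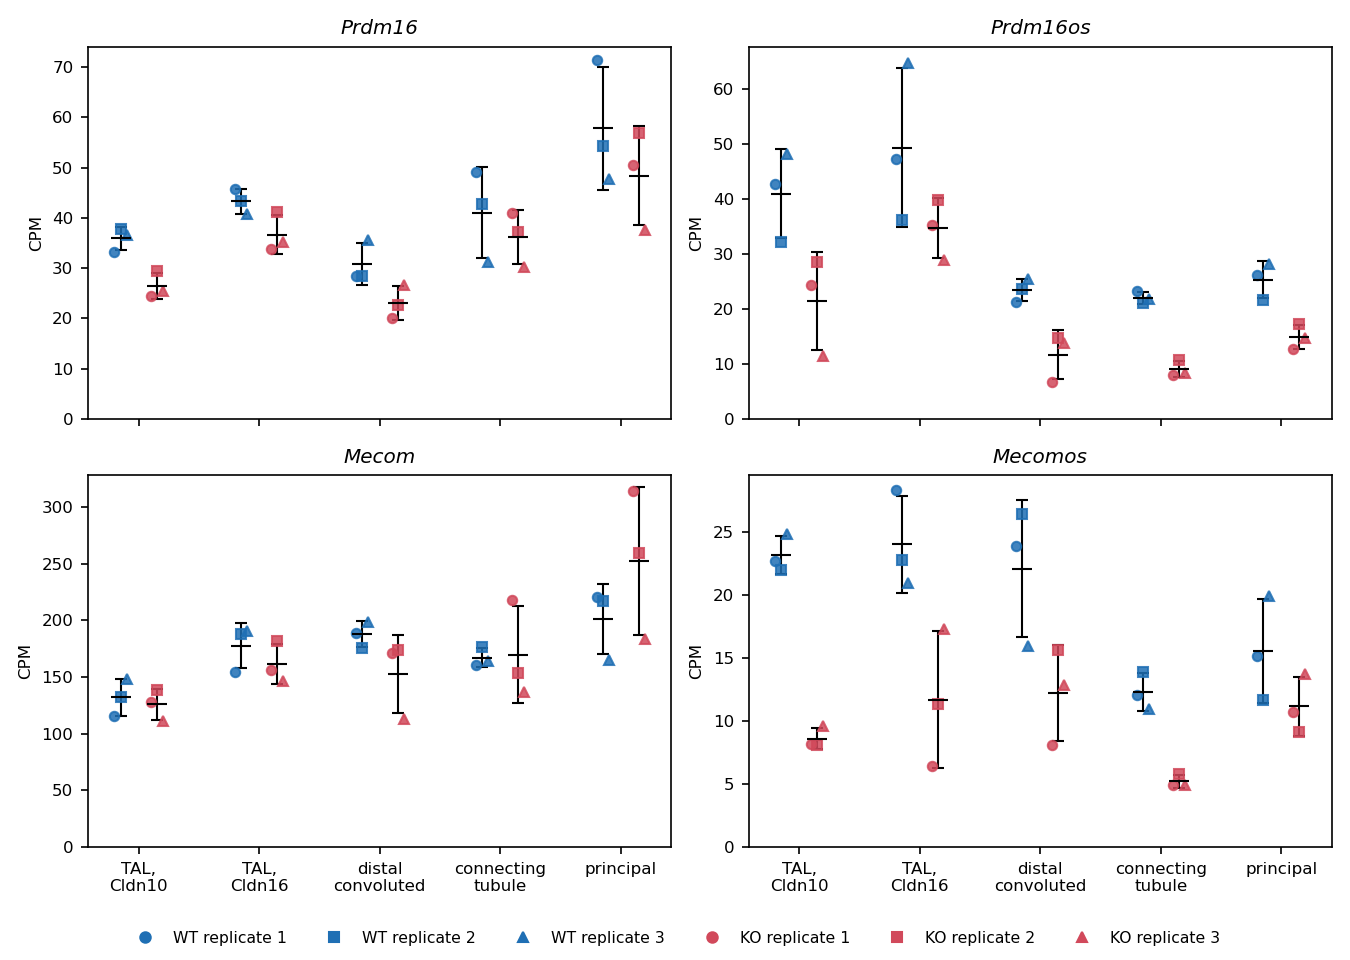
Levels in CPM (y axes) of Prdm16 and Mecom (left) and of the non-coding RNAs Prdm16os and Mecomos (right) in 5 classes (TAL, thick ascending limb), 1 point per library (blue WT, red KO, shape for the replicate) with the mean and SD (n = 3) in black. Mecomos in the Cldn10 thick ascending limb lay at 22.03 to 24.9 CPM in WT mice versus 8.10 to 9.58 CPM in KO libraries, whereas the Mecom values of the 2 groups overlapped.

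Most other family members had few UMIs over all cells. Of the other mouse PRDM genes, Prdm12 and Prdm13 had 0 UMIs, which over all retained UMIs allows up to 0.0168 CPM, and Prdm8 and Prdm14 had 1 and 7. Prdm6, a regulator of smooth muscle named here after its values were seen, had 45 UMIs, of which 42 were in smooth muscle and renin cells, at 56.8, 20.1 and 91.4 CPM in WT mice versus 53.6, 17.2 and 18.9 CPM in KO libraries, which overlapped. Prdm11 and Zfp408 had 230 and 436 UMIs. Prdm9, which directs meiotic recombination in germ cells, had 801, and in macrophages, the class named here after its values were seen, it was at 46.3, 31.3 and 50.4 CPM in WT mice versus 65.7, 74.8 and 59.0 CPM in KO libraries (log2 fold change 0.78, adjusted p = 0.34, edgeR). The 2 genes of this list that could be tested gave 7 class tests, 0 of them called, with a median log2 fold change of 0.07.

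Genes of proteins that work with PRDM16 or MECOM, such as the co-repressors Ctbp1 and Ctbp2 and the demethylase Kdm1a, were examined next. The 18 genes of this list gave 222 class tests with a median log2 fold change of 0.02, of which 1 was called higher and 1 lower. Over all gene and class tests 1.39% were called, and the share among these genes was not above this background. The calls fell in the Cldn10 thick ascending limb and in principal cells, where 4.07% and 2.14% of all genes were called. Cebpb, the partner of PRDM16 in the brown fat switch, rose in the Cldn10 thick ascending limb from 45.4, 56.2 and 61.8 CPM among WT mice to 89.1, 97.2 and 87.9 CPM in KO libraries, at 0.72 (adjusted p = 0.0043, edgeR, and 0.029 without the 2 libraries at odds with their labelled sex). Ppargc1a, the co-activator of mitochondrial biogenesis, fell in principal cells from 212, 262 and 189 CPM to 119, 90.4 and 125 CPM, at -0.94 (95% interval -1.30 to -0.59, adjusted p = 0.0115, edgeR). Its call was lost without WT replicate 2, without KO replicate 2 and without WT replicate 2 and KO replicate 1 together (adjusted p = 0.12, edgeR). Neither gene was compared between classes.

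The 6 genes of histone H3 lysine 9 methyltransferases (Setdb1, Setdb2, Suv39h1, Suv39h2, Ehmt1 and Ehmt2) gave 51 class tests, 0 called and 1 with an unadjusted p under 0.05, with a median of 0.11. The genes that PRDM16 is known to switch on in brown fat were mostly near 0 in renal cortex. Ucp1, the uncoupling protein of brown fat mitochondria, had 77 UMIs in all, Dio2 37, Cidea 11, Elovl3 5 and Cox8b 2. Cox7a1, Ppargc1a and Ppara had 16515, 23477 and 528 UMIs and gave 23 class tests, of which 1, that of Ppargc1a in principal cells, was called lower. Of all genes, 2.14% were called in principal cells.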

How the data were processed

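The 6 deposited tables hold UMI counts per gene and barcode, which the authors made with the BD Rhapsody whole transcriptome pipeline against the mouse genome. The submitters' processing notes name mm10 and Scanpy 1.8. The files held 168106 to 208226 barcodes and 96382945 to 121198131 UMIs per library, so the limits on cells were applied here. Because the automatic doublet threshold marked 0.0747% to 0.292% of cells, the 6% of each library with the highest Scrublet scores were removed instead. Counts were scaled to 10000 per cell and clustered (2000 variable genes without the members, 30 components, 15 neighbours, Leiden resolution 1) in scanpy 1.11.5. Clusters were named from fixed marker lists, and a cluster with equal Calb1 and Slc12a3 evidence stayed unnamed. Counts were summed per mouse and class and tested with edgeR 4.0.16 (R 4.3.3, TMM, filterByExpr with a minimum count of 10, quasi-likelihood, two-sided, Benjamini-Hochberg over all genes tested in a class). A gene was called at an adjusted p under 0.05. An exact permutation test of 3 against 3 mice cannot go below p = 0.1 and was not used. CPM are counts per 1000000 UMIs of the summed class or library. These totals include mitochondrial UMIs, whose median share was 8.79% in a podocyte cluster and 43.3% in the Cldn10 thick ascending limb. Levels were not rescaled for this when classes were set side by side.

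Alternatives were DESeq2 1.42.0, RLE size factors, thinning to equal UMIs, no low-count filter, a replicate block, a block for sex transcripts, no doublet removal, mitochondrial limits of 30% or none, classes from marker scores, and leaving out libraries. Named genes are the 7 members in every class, list genes where called, the 10 genes most like Prdm16 and the 5 most like Mecom. The members and lists were chosen with earlier results of these data known. Same-numbered WT and KO mice were not treated as pairs, except under the replicate block.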

Additional observations from a re-analysis of the deposited data

Results flagged for a closer look

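Signal for both leading genes lay outside the compared cells. The barcodes with under 100 UMIs of the 6 libraries held 1206 UMIs of Prdm16 and 4747 of Mecom, at 24.9 to 39.9 CPM and 105 to 149 CPM. Proximal tubule cells examined with no mitochondrial limit held 43 UMIs of Prdm16 and 157 of Mecom.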

How the results depend on the processing

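No member was called within a class, or over all cells, under the alternatives except 1, Prdm16 in the Cldn10 thick ascending limb with no mitochondrial limit. With no low-count filter, 1 of 78 tests of the other PRDM genes and 7 of 317 partner tests were called. So were 3 thermogenic tests and 2 members in the test between classes. The share of all genes called under that setting is not given here, so these counts have no background. Partner calls numbered 1 with the 30% limit, 1 with marker-score classes and 1 to 2 when single libraries were left out. Thermogenic calls numbered 0 to 1 when single libraries were left out. When single libraries were left out, the log2 fold change of Prdm16 ran from -0.66 to 0.067 in Sox17 endothelium (positive without WT replicate 1), from -0.95 to 0.040 in smooth muscle and renin cells (positive without KO replicate 1) and from -0.50 to 0.26 in peritubular endothelium (positive without WT replicate 1, WT replicate 3 or KO replicate 1), where the block for sex transcripts gave 0.033. The cause was not tested. The sign of the fold change turned under at least 1 alternative in 3 of 12 tested classes for Prdm16, 7 of 16 for Mecom, 10 of 17 for Prdm2, 5 of 8 for Prdm4, 3 of 4 for Prdm1 and for Prdm10, and 1 of 2 for Prdm15.

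The 30% mitochondrial limit ended the calls in the connecting tubule of Prdm16os, whose log2 fold change went from -1.29 to -1.25 (adjusted p = 0.12), and of Mecomos, whose log2 fold change went from -1.24 to -0.24 (adjusted p = 0.93), and that of Cebpb (adjusted p = 0.29, edgeR). Marker-score classes ended that of Ppargc1a. A replicate block called 0 members, 2 partner tests and 1 thermogenic test, as without it. Deviations of same-numbered WT and KO mice correlated at 0.215, -0.062 and 0.212, and those of differently numbered mice at -0.356 to 0.189. So few values cannot decide whether same-numbered mice were processed together. Prdm15 passed the low-count filter in 2 classes, and its other classes could not be tested at these counts.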
